A study of Mus musculus with 30 samples.

Results

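The major urinary proteins are small lipocalins, barrel-shaped carriers that bind volatile pheromones. In the mouse they are made mainly by hepatocytes, secreted into blood and excreted in urine, where they release the bound scents slowly and act as scent signals themselves. Their hepatic transcription is higher in males, under the pulsatile male pattern of growth hormone secretion acting through the receptor, JAK2 and STAT5B. The members followed here were 7 genes, *Mup1*, *Mup2*, *Mup3*, *Mup17*, *Mup19*, *Mup20* and *Mup21*, chosen by name with measured values of both count tables already known. Which values lay behind the choice is not recorded in the sources used here, so tests on these counts are not independent of it. They are 7 of 48 rows named Mup among the 54429 rows of the time-course count table, and 7 of 49 rows named Mup among the 55471 rows of the genotype count table. *Mup20* encodes darcin, a male pheromone that attracts females.

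Liver poly(A) RNA of male mice was sequenced in 2 experiments. The time course held 18 libraries of C57BL/6J mice aged 2, 6 and 12 months, with 1 library at each of zeitgeber times (ZT, hours after lights on) 1, 5, 9, 13, 17 and 21. The genotype experiment held 12 libraries, 1 for each of wild type (WT) and knockout (KO), age 2, 6 or 12 months, and time of collection H or L. KO mice carried floxed *Egr-1* and the *Alb-Cre* transgene, whose albumin promoter is active in hepatocytes, and WT mice were littermates from a line first made in 129 and then backcrossed to C57BL/6J. H and L mark the times of highest and lowest Egr-1 protein, which were ZT13 and ZT17 at 2 months, ZT9 and ZT21 at 6 months, and ZT5 and ZT21 at 12 months. No age, genotype and time had a replicate library. A figure legend of the study on the genotype transcriptomes mentions several mice per group. The sources used here do not say whether a library pooled mice. Total counts ranged from 13375377 to 16557378 in the time course and from 13747706 to 21748956 in the genotype experiment. *Egr1* RNA was lower in the KO library in 4 of 6 pairs. Among these the difference was small at 2 months H. WT had 2.55 CPM there (counts scaled to a common library size, 50 reads) and KO 1.97 CPM (41 reads). At 2 months L *Egr1* was 1.45 CPM in WT and 7.37 CPM in the library labelled KO, and at 12 months H it was 5.86 and 6.11 CPM. Genotype differences are given with and without the pairs of 2 months L and 12 months H. The pair of 2 months H stays in both. All 6 hepatocyte markers were counted in every group, and their sum was 74054 to 95199 CPM in WT and 44374 to 61250 CPM in KO, which did not overlap.

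The family lies in 1 cluster on chromosome 4 (GRCm38, 59956804 to 62150863), which holds 48 of the 49 annotated *Mup* genes and pseudogenes. The 7 members are protein-coding genes on the minus strand of chromosome 4, namely *Mup2* (ENSMUSG00000078688, 60135932 to 60154289), *Mup1* (ENSMUSG00000078683, 60498012 to 60501960), *Mup17* (ENSMUSG00000096688, 61591929 to 61595871), *Mup19* (ENSMUSG00000078673, 61778324 to 61782269), *Mup20* (ENSMUSG00000078672, 62050234 to 62054158), *Mup3* (ENSMUSG00000066154, 62083476 to 62087342) and *Mup21* (ENSMUSG00000066153, 62147932 to 62150863). The coding sequences of *Mup1*, *Mup2*, *Mup17* and *Mup19* were 540 bases each and differed from each other at 3 to 7 of them. *Mup3* and *Mup21* were 94.8% identical to each other. *Mup20* was 90.6 to 91.0% identical to the group of 4, while *Mup3* and *Mup21* were 82.7 to 84.5% identical to it. A stretch of 120 coding bases is shown because it lets a reader see how closely the members resemble each other, with capitals marking bases that differ from *Mup17* in the alignment. Over this stretch *Mup1*, *Mup2* and *Mup19* had the same bases, and each differed from *Mup17* at 3 of them. *Mup20* differed at 18, *Mup3* at 26 with a further 3 positions that are gaps, and *Mup21* at 29.
Mup17: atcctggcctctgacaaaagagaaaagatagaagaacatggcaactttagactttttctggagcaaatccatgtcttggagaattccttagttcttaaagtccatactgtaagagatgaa
Mup1, Mup2 and Mup19: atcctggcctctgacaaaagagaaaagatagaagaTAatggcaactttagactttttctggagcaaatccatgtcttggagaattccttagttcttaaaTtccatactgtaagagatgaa
Mup20: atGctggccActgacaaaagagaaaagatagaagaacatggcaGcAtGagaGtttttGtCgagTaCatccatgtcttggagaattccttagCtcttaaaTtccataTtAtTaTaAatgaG
Mup3: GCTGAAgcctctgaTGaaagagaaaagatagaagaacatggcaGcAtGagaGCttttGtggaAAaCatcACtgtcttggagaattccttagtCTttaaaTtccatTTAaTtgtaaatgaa
Mup21: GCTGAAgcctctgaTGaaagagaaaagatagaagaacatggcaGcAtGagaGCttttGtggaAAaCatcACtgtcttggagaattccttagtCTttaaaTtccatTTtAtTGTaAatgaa

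Reads from such similar genes can be hard to tell apart, which bears on every value of a single member. When each member's annotated transcripts were read in windows of 100 bases, 97.8% of the windows of *Mup3* and 95.5% of those of *Mup21* were found in no other gene. The share was 61.2% for *Mup20*, whose other windows were shared with *Mup-ps19*, then 44.3% for *Mup1*, 40.6% for *Mup17* and 24.5% for *Mup2*. Of the windows of *Mup19*, 0% were its own. The 3 members with the highest shares had the smallest spread between libraries of 1 age. The within-age SD of log2 CPM was 0.27 for *Mup3*, 0.37 for *Mup20* and 0.46 for *Mup21*, against 0.96 for *Mup1*, 1.32 for *Mup17*, 1.82 for *Mup2* and 2.08 for *Mup19*. For the sum of the 7 members it was 0.28, and for the sum of all *Mup* rows 0.27. These are 7 genes of shared sequence and the relation is a description. How the counting treated reads that match several genes is not given in the sources used here, so values of *Mup1*, *Mup2*, *Mup17* and *Mup19* alone are uncertain, and the sums stand beside them throughout.

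**Figure D1:**
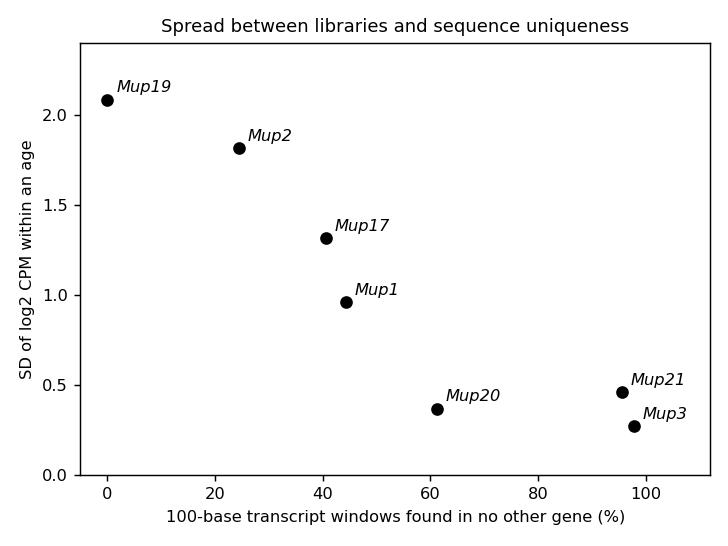
Share of each member's 100-base transcript windows found in no other gene (x axis, percent) against its within-age SD of log2 CPM in the time course (y axis), 1 point per gene. Mup3 and Mup21 sit at the right with SDs of 0.27 and 0.46, and Mup19 at 0% has the SD of 2.08.

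RefSeq promoter windows (GRCm38.p6, 250 bases before to 50 after the annotated start) were matched for 5 of the 7 members, and not for *Mup1* and *Mup20*. *Mup2*, *Mup17* and *Mup19* were 94.5 to 96.1% identical there and *Mup3* and *Mup21* 90.2%, while identity between these groups was 58.1 to 63.0%. Both kinds are shown, on the minus strand, with TATATAA in capitals. *Mup17* lies at chr4:61595783-61596082 and *Mup3* at chr4:62087268-62087567.
Mup17: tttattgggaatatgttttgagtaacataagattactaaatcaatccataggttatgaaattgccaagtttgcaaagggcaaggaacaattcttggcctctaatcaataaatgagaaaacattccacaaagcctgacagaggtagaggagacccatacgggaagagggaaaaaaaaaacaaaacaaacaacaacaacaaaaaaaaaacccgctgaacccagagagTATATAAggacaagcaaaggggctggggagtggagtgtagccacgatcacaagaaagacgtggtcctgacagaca
Mup3: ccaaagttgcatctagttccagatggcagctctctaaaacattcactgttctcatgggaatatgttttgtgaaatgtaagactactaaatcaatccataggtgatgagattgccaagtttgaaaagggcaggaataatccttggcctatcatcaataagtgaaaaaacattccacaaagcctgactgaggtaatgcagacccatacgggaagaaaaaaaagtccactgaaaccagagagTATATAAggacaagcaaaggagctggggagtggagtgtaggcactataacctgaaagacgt
TATATAA, letters chosen after the promoters were seen and searched on both strands, stood in 5 of 5 member promoters, 13 of 14 *Mup* promoters and 3.24% of all 32851 promoters. The STAT5-type motif TTCNNNGAA, which reads the same on both strands, stood in 0 of 5 member promoters, 0 of 14 *Mup* promoters and 8.30% of all promoters. A match or its absence describes these windows alone.

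In the time course the whole family took 6.27 to 8.52% of all counts at 2 months, 6.18 to 9.27% at 6 months and 2.87 to 4.48% at 12 months. Values were also scaled by exon length as well as library size (FPKM). Among the 7 members *Mup3* had the highest median at 2 and 12 months, 18185 and 13977, and *Mup17* at 6 months, 15553. Outside the members *Mup7* was higher at 6 months, at a median of 16602 FPKM. *Mup20* had medians of 6261, 9158 and 6196 FPKM at 2, 6 and 12 months. The median of *Mup17* was above that of *Mup20* at 2 months (11250) and below it at 12 months (4532). Their ranges overlapped at both of these ages. *Mup21* was below *Mup3*, *Mup17* and *Mup20*, at medians of 731, 760 and 591 FPKM. *Mup1* and *Mup2* had medians of 42.1 to 63.1 FPKM at every age, with overlapping ranges. *Mup19* changed its place most between ages, with medians of 85.5, 846 and 42.9 FPKM.

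**Figure D2:**
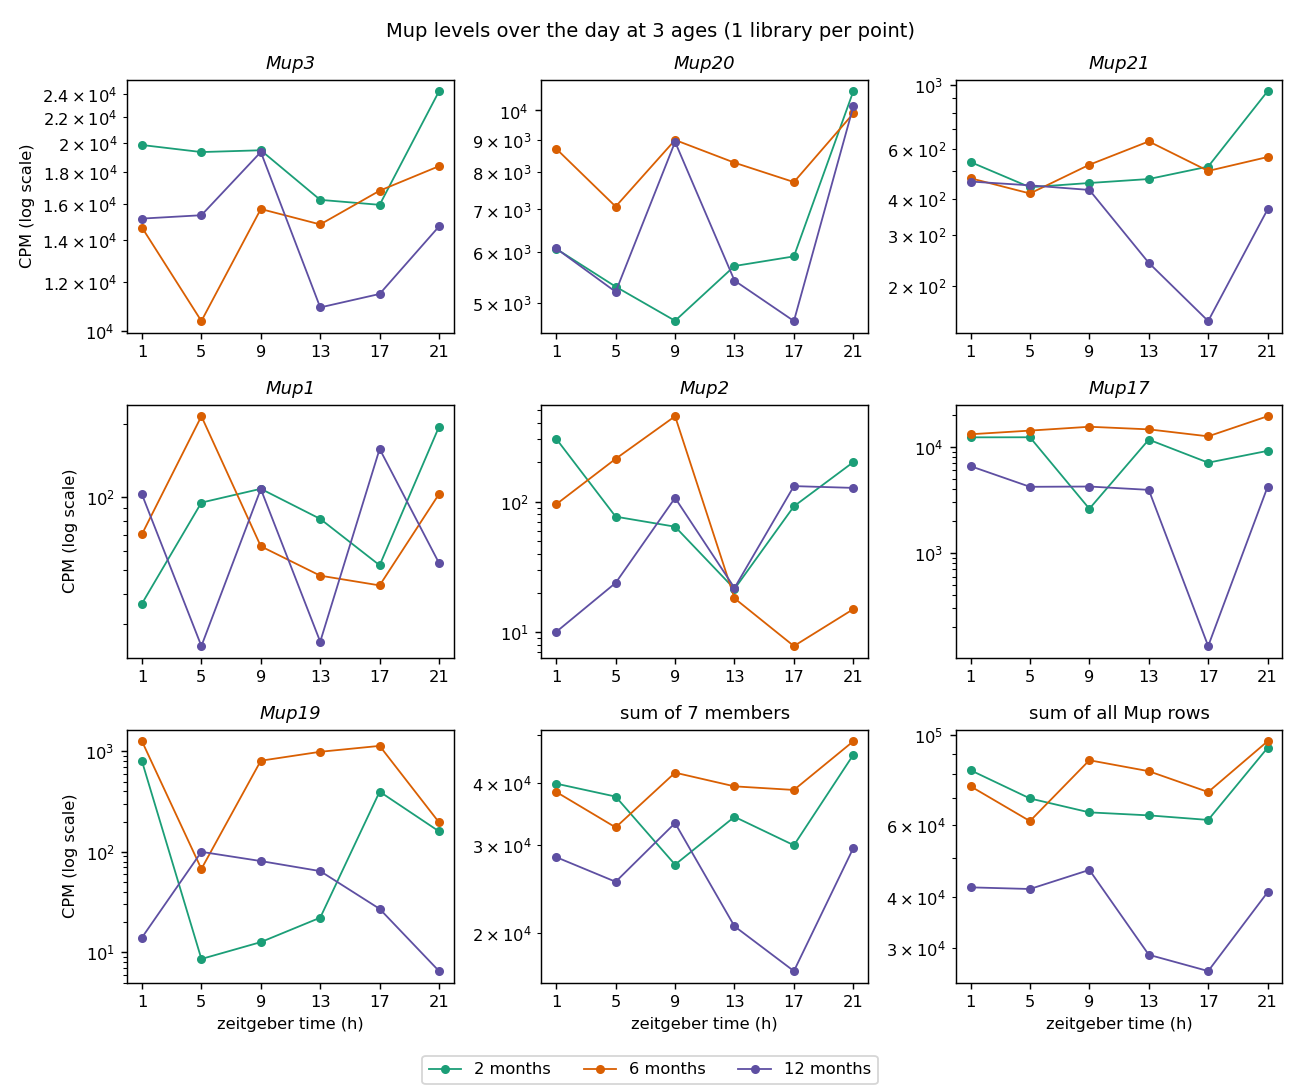
Scaled CPM (log axis) of the 7 members and 2 family sums against zeitgeber time in hours, with 1 library per point and 1 line per age. For all Mup rows the 12-month line runs from 26333 to 46631 CPM, below every 2-month and 6-month point, while for Mup3 and Mup20 the lines overlap.

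The comparison of ages asks how hepatic *Mup* RNA differed between young, middle and older adult males. The family as a whole was lower at 12 months. The sum of all *Mup* rows had its lowest, median and highest values at 61848, 67186 and 92948 CPM at 2 months, 61445, 78129 and 96457 CPM at 6 months, and 26333, 41486 and 46631 CPM at 12 months. Every 12-month library was below every younger library, and the younger ages overlapped. The sum fell between 6 and 12 months by a log2 fold change of -1.07 (SE 0.15, adjusted p = 0.000145, edgeR quasi-likelihood test, lower at 6 of 6 ZT) and was also lower at 12 than at 2 months, at -0.94 (SE 0.15, adjusted p = 0.000501, lower at 6 of 6). The exact sign-flip permutation test over the 6 ZT gave p = 0.03125 for each, two-sided, the smallest it can give. Between 2 and 6 months the difference was 0.13 (SE 0.14, adjusted p = 0.613). In bulk liver, fewer hepatocytes and less RNA per hepatocyte cannot be told apart. The hepatocyte marker sum was 97865 to 133131 CPM at 12 months, 55509 to 106380 CPM at 6 months and 89676 to 104707 CPM at 2 months, and all 6 markers were counted in each. The lymphoid marker sum was 47.4 to 294 CPM at 12 months against 18.7 to 26.1 CPM at the younger ages, with all 4 markers counted. The cholangiocyte marker sum, also with all 4 counted, was 13.6 to 22.8 CPM at 12 months, below 32.1 to 142 CPM at 6 months and 26.9 to 42.6 CPM at 2 months, with no overlap. Kupffer cell markers summed to 270 to 390 CPM at 12 months and to 350 to 545 CPM at 6 months, with overlap, and stellate markers to 324 to 462 and 253 to 330 CPM. The part of these marker sums in the result was not tested.

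The sum of the 7 members was lowest, in the median and highest at 27424, 35906 and 45622 CPM at 2 months, 32587, 39086 and 48566 CPM at 6 months, and 16750, 26862 and 33246 CPM at 12 months. The 12-month libraries were mostly the lowest, and the groups overlapped. It was lower at 12 than at 6 months, at -0.66 (SE 0.15, adjusted p = 0.00598, lower at 6 of 6 ZT). Against 2 months it was -0.49 (SE 0.15, adjusted p = 0.0363, lower at 5 of 6 ZT), a call that did not hold when ZT1, ZT5, ZT13, ZT17 or ZT21 was left out (adjusted p = 0.0651 to 0.112) nor in the exact sign-flip permutation test (p = 0.0625). Between 2 and 6 months it was 0.17 (SE 0.14, adjusted p = 0.507).

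All 7 members passed the filter on low counts, and *Mup17* was the only member that edgeR called between ages in the time course. Its row shares most of its transcript windows with other *Mup* rows. It had 2609, 10429 and 12307 CPM as lowest, median and highest at 2 months, 12560, 14417 and 19420 CPM at 6 months, and 133, 4201 and 6579 CPM at 12 months. The 6-month libraries lay above all others, with no overlap with either age, and the ZT17 library at 12 months stood far below its neighbours. Between 6 and 12 months *Mup17* fell by 2.16 on the log2 scale (SE 0.51, adjusted p = 0.00955, lower at 6 of 6 ZT), and the value was -1.77 (adjusted p = 0.00116) without ZT17. It was 1 of 7 members called in that comparison, where 16.1% of 13948 genes tested were called in either direction. Between 2 and 6 months it was higher at 6 of 6 ZT, at 0.79 (SE 0.49, adjusted p = 0.323), and between 2 and 12 months -1.37 (SE 0.51, adjusted p = 0.0917). In these comparisons 0 of 7 members were called, beside 13.6% of genes for 6 against 2 months and 11.7% for 12 against 2 months. DESeq2 called *Mup20* for 6 against 2 months, 1 of 7 members beside 15.2% of genes. For 12 against 2 months it called *Mup3* and *Mup17*, 2 of 7 beside 13.8%. For 12 against 6 months it called *Mup17*, *Mup19* and *Mup20*, 3 of 7 beside 17.7%.

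The members with the most windows of their own did not pass the edgeR test between any ages of the time course. *Mup3* had lowest, median and highest values of 15932, 19422 and 24231 CPM at 2 months, 10376, 15254 and 18377 CPM at 6 months, and 10910, 14928 and 19361 CPM at 12 months. The ages overlapped, with 2 months the highest in the median. Its difference between 12 and 2 months was -0.41 (SE 0.14, adjusted p = 0.0706, lower at 6 of 6 ZT), and between 12 and 6 months -0.07 (SE 0.14, adjusted p = 0.777). *Mup20* had 4687, 5810 and 10719 CPM at 2 months, 7074, 8498 and 9894 CPM at 6 months, and 4683, 5750 and 10146 CPM at 12 months. The 6-month median was the highest and the ages overlapped, with a difference of 0.44 between 6 and 2 months (SE 0.14, adjusted p = 0.0528, higher at 5 of 6 ZT) and -0.37 between 12 and 6 months (SE 0.14, adjusted p = 0.0886). *Mup21* had 441, 495 and 950 CPM at 2 months, 419, 515 and 636 CPM at 6 months, and 151, 400 and 461 CPM at 12 months. Its 12-month values reached lower than at the other ages but overlapped with them, at -0.69 against 2 months (SE 0.22, adjusted p = 0.0546) and -0.62 against 6 months (SE 0.22, adjusted p = 0.0686).

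*Mup1*, *Mup2* and *Mup19* were scattered, and *Mup1* and *Mup2* were low at every age. *Mup19* had lowest, median and highest values of 8.58, 91.0 and 798 CPM at 2 months, 67.6, 900 and 1262 CPM at 6 months, and 6.50, 45.7 and 100 CPM at 12 months. Its 6-month libraries were mostly the highest, and the groups overlapped. The difference between 12 and 6 months was -3.37 (SE 1.13, adjusted p = 0.0530, lower at 5 of 6 ZT), and between 6 and 2 months 1.94 (SE 1.03, adjusted p = 0.239, higher at 6 of 6). *Mup1* ran from 24.3 to 216 CPM and *Mup2* from 7.81 to 451 CPM over the 18 libraries, with every age overlapping every other. Their age differences ranged from -0.75 to -0.09, with adjusted p = 0.611 to 0.930.

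**Figure D3:**
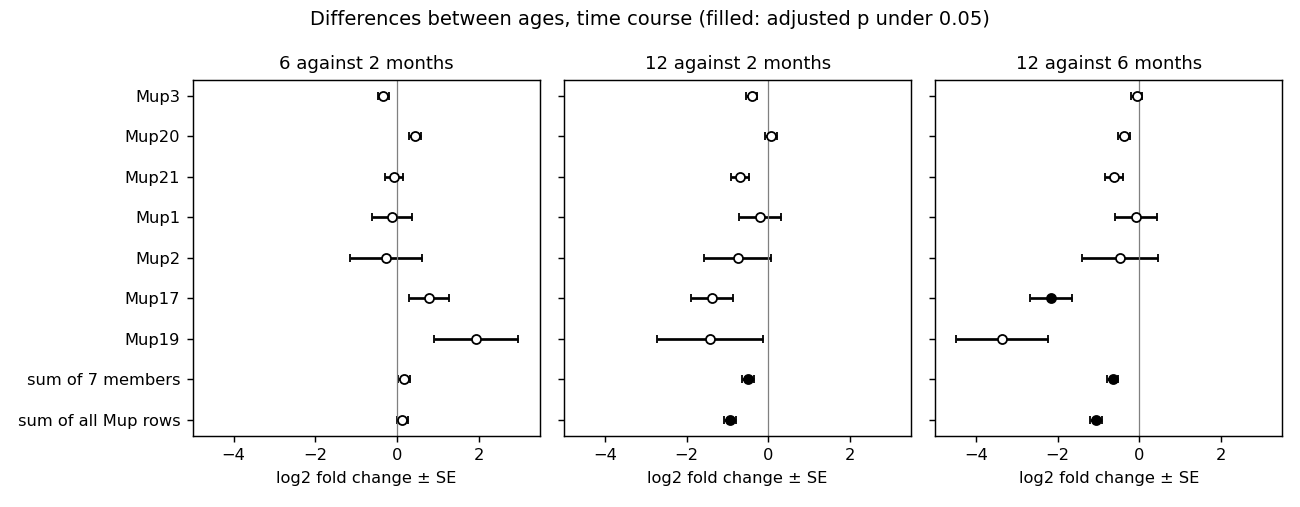
Log2 fold changes between ages in the time course for the 7 members and the family sums, with bars of 1 SE from the edgeR fit. Mup17 at -2.16 and the sums at -0.66 and -1.07 passed the test for 12 against 6 months, and the SE of Mup19 there was 1.13.

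In the counts as given, the other *Mup* rows carried most of the fall. The mean sum over all *Mup* rows went from 78870 CPM at 6 months to 37845 CPM at 12 months, and rows outside the 7 members made up 65.2% of that difference. *Mup17* made up 26.9%, *Mup7* 25.3%, *Mup12* 14.1% and *Mup15* 13.2%, against 4.15% for *Mup20* and 1.53% for *Mup3*. Members shared transcript windows with other rows, such as 39.4% of the 100-base windows of *Mup1* with *Mup12*. The share of own windows was not computed for rows outside the members. The split between single rows is therefore uncertain, and the other rows may not be independent of each other. Of the other numbered *Mup* genes tested, 12 of 14 were called lower at 12 than at 6 months and 0 were called higher. Over all genes 7.58% were called lower and 8.57% higher. The median log2 fold change of the 14 was -2.16, beside -0.0039 over all genes. *Mup10*, at 0.72, and *Mup13*, at -0.68, were not called. Among those called lower were *Mup7* at -1.37 (SE 0.17, adjusted p = 7.61e-05), *Mup11* at -2.07 (SE 0.21, adjusted p = 1.01e-05) and *Mup15* at -4.47 (SE 0.62, adjusted p = 0.000219). Against 2 months 9 of these 14 were called lower and 0 higher at 12 months, beside 5.18% and 6.47% of genes. At 6 against 2 months 3 were called higher and 0 lower, beside 6.83% and 6.73% of genes. Of 14 *Mup-ps* pseudogenes tested, 2 were called lower and 0 higher at 12 than at 6 months. Against 2 months 6 were called lower and 0 higher at 12 months, and 3 lower and 1 higher at 6 months. *Mup3* made up 26.5%, 19.2% and 38.3% of the mean family sum at 2, 6 and 12 months and *Mup20* made up 8.84%, 10.7% and 17.8%.

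**Figure D4:**
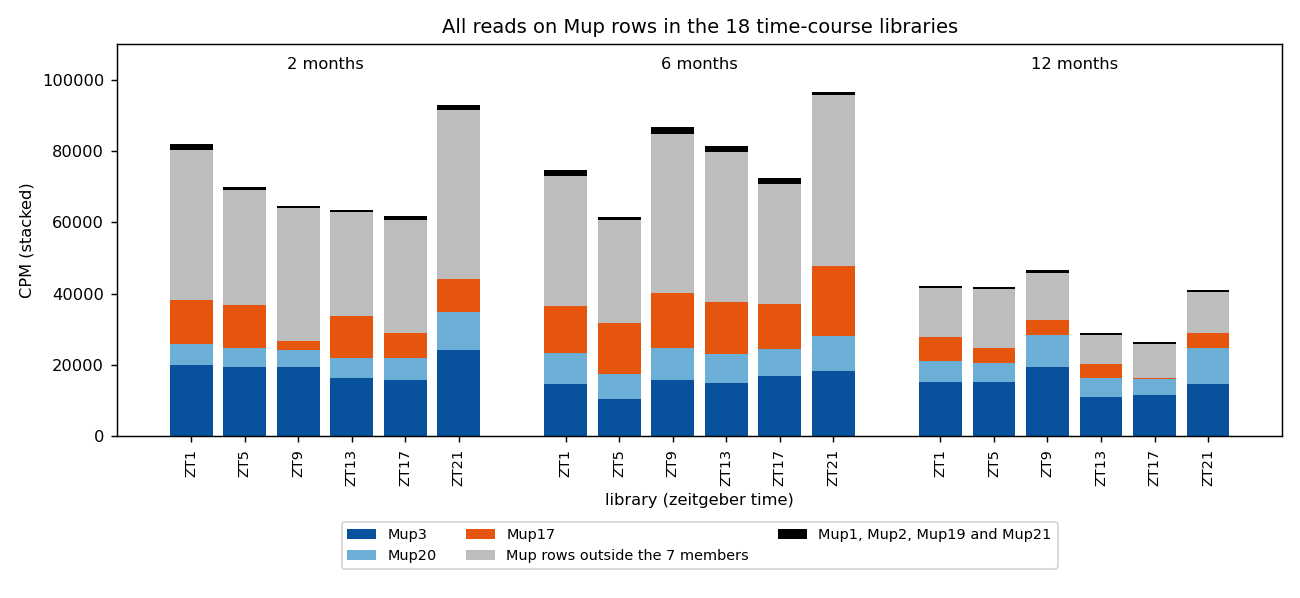
Stacked CPM of the Mup rows in each time-course library, split into the members and the other Mup rows. At 12 months the other rows hold 32.2% of the mean family sum, against 50.6% at 2 months and 49.3% at 6 months.

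Whether the members follow a daily rhythm was asked within each age. A JTK-type rank test over every order of 6 values, an exact permutation test, cannot go below p = 0.0333, two-sided, and no gene had an adjusted p under 0.05 at any age. *Mup20* at 2 months reached that smallest exact p of 0.0333 (adjusted p = 0.383), with its best match peaking at ZT21, where it had 10719 CPM against 4687 to 6074 CPM at the other times. It was 1 of 7 members, beside 8.7% of genes. At 6 and 12 months it was 0 of 7, beside 8.28% and 6.44%. A cosine fit in edgeR called *Mup2* at 6 months (adjusted p = 0.00934), 1 of 7 members beside 4.62% of genes. Its values there were 95.4, 213 and 451 CPM at ZT1, ZT5 and ZT9 and 18.1, 7.81 and 15.0 CPM at ZT13, ZT17 and ZT21. It also called *Mup21* at 12 months (adjusted p = 0.0331), 1 of 7 beside 3.53%, with 431 to 461 CPM from ZT1 to ZT9 and 151 to 369 CPM from ZT13 to ZT21. At 2 months it called 0 of 7, beside 4.72%. The exact test gave p = 0.133 for both. A change of rhythm was called for 0 of 7 members between 2 and 6 months, beside 0.105% of genes. In that edgeR fit *Mup2* had adjusted p = 0.0765. It was called with no filter, beside 0.515% of genes, and by DESeq2, beside 2.29%. Between 2 and 12 months edgeR called 0 genes, or 0%, with 657 at an unadjusted p under 0.05 and 18 by DESeq2, among them *Mup21*. On the same cosine fit 14 of 15 core clock genes were called at 2 months, 13 at 6 months and 14 at 12 months, among them *Dbp* and *Cry1*.

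The comparison of genotypes asks whether hepatocyte loss of *Egr-1* altered *Mup* RNA. Of the 7 members 0 were called, beside 1.36% of 14843 genes. The sum of all *Mup* rows had lowest, median and highest values of 16386, 24502 and 45860 CPM in WT and 9592, 22086 and 40180 CPM in KO. The groups overlapped widely, and KO was lower in 3 of 6 pairs. The difference was -0.23 (SE 0.24, adjusted p = 0.703), and 0.20 without the pairs of 2 months L and 12 months H. The sum of the 7 members was 9332, 14329 and 25860 CPM in WT and 7484, 14565 and 24944 CPM in KO, a difference of -0.09 (SE 0.25, adjusted p = 0.915) that turned to 0.32 without those pairs. The exact sign-flip permutation test gave p = 0.562 for all rows and p = 0.844 for the 7. The WT and KO hepatocyte marker sums given above did not overlap, and their part in these values was not tested.

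*Mup3* had 5873, 9269 and 17523 CPM in WT and 4416, 6903 and 10453 CPM in KO. It was lower in KO in 5 of 6 pairs, with overlapping groups, at -0.47 (SE 0.17, adjusted p = 0.226) and at -0.22 without the doubted pairs. *Mup20* had 1265, 1966 and 3151 CPM in WT and 1361, 2035 and 2906 CPM in KO, and the difference was 0.05 (SE 0.19, adjusted p = 0.937), or 0.33 (adjusted p = 0.261) without those pairs. The pair of 2 months L was the only one lower in KO for *Mup20*, at 3151 CPM in WT and 1364 CPM in the library labelled KO. *Mup17* had 874, 1940 and 4645 CPM in WT and 953, 3351 and 10370 CPM in KO, at 0.73 (SE 0.80, adjusted p = 0.723) and at 1.88 (adjusted p = 0.481) without the doubted pairs. Its pairs ran in opposite directions, 3 higher and 3 lower in KO. *Mup21* ran from 111 to 512 CPM in WT and from 109 to 341 CPM in KO, at -0.19 (SE 0.18, adjusted p = 0.675) and at 0.0441 without those pairs. The remaining members overlapped as widely. *Mup19* was at 0.75 (SE 1.16, adjusted p = 0.820), *Mup1* at 0.25 (SE 0.53, adjusted p = 0.874) and *Mup2* at 0.02 (SE 0.57, adjusted p = 0.991). Without the doubted pairs they were at 2.38, 0.91 and 0.10, with adjusted p = 0.515, 0.639 and 0.944.

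The widest pairs belonged to the near-identical members. The study lists *Mup17* and *Mup19* among genes significantly higher in KO at 6 months H. Its figure legend gives an unadjusted p under 0.05 from limma, and its methods a false discovery rate under 0.05. The pair was looked at with that result known and was not tested here, so its values are a description. There *Mup17* had 874 CPM in WT and 10370 CPM in KO, an 11.9-fold ratio, and *Mup19* had 506 and 1545 CPM. The sum of all *Mup* rows in that pair was 28328 and 40180 CPM, a ratio of 1.42. At 12 months L *Mup17* had 938 and 9773 CPM, a 10.4-fold ratio, and the family sum had a ratio of 1.56. *Mup19* there had 19 reads in WT, or 1.22 CPM (exact Poisson 95% interval 0.733 to 1.90, counting error only), and 484 CPM in KO. At 6 months L *Mup17* went the other way, from 4645 CPM in WT to 1774 CPM in KO. These pairs have 1 library on each side and no test. The genotype effect was not called to differ between ages (0 of 7 members, beside 0.0135% of genes) or between H and L (0 of 7, beside 0.00674%). Without the doubted pairs, which left 1 pair at 2 months and 1 at 12 months so that the spread came from the 6-month pairs alone, edgeR called the difference between ages for 32 of 15207 genes, among them *Mup1* (adjusted p = 0.0064) and *Mup19* (adjusted p = 0.000116). The family sums were not called there, and between H and L edgeR called 0 genes, with 739 at an unadjusted p under 0.05.

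**Figure D5:**
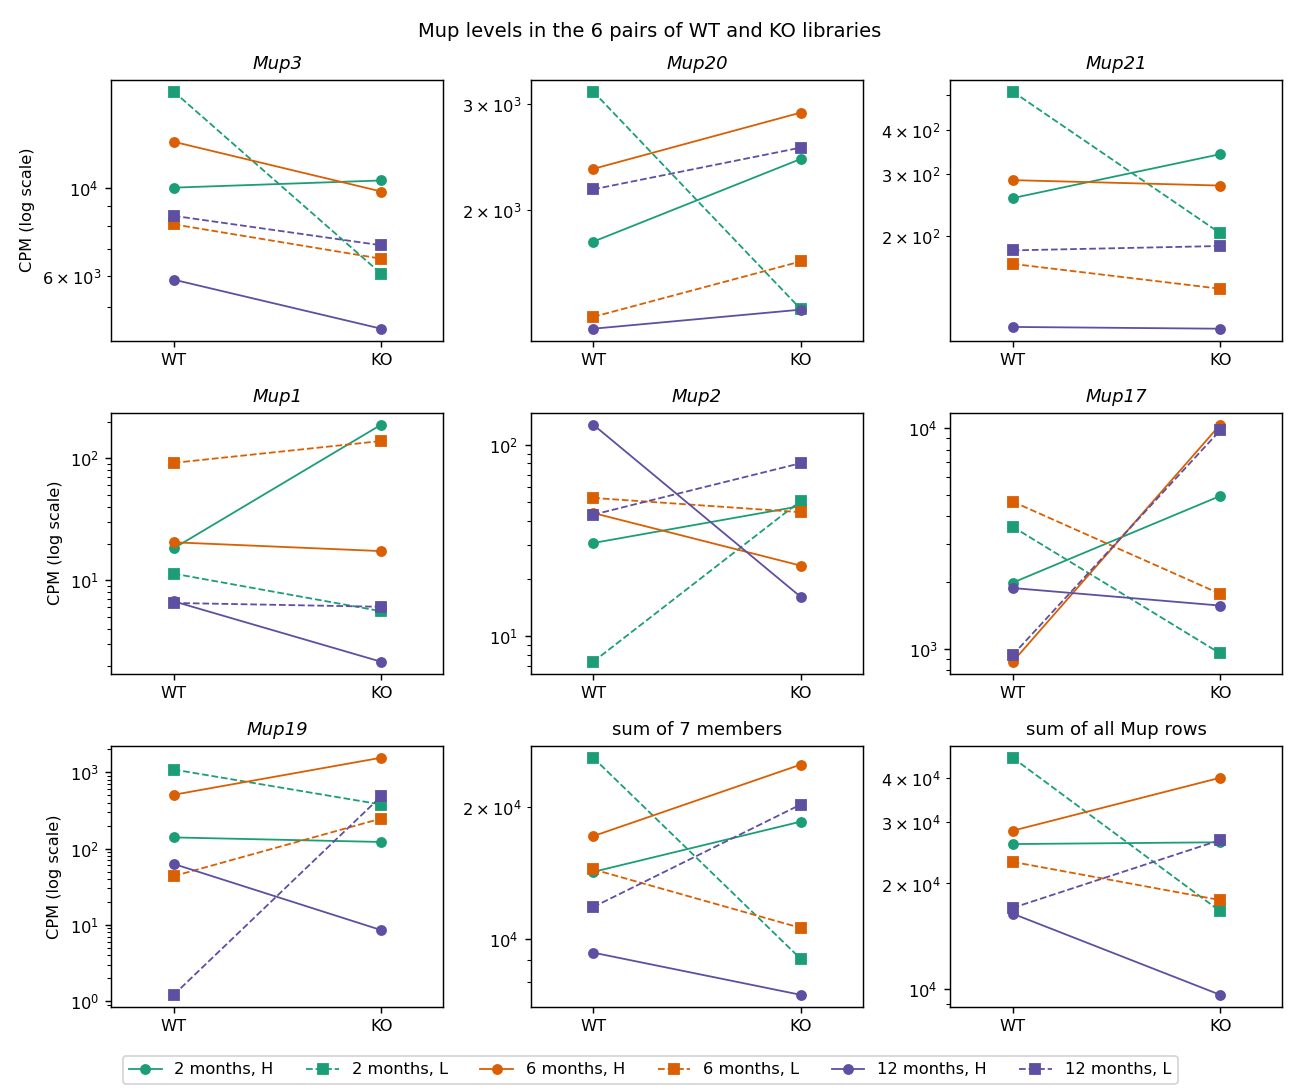
Scaled CPM (log axis) of the 7 members and 2 family sums in the 6 pairs of WT and KO libraries, with 1 line per pair, coloured by age and drawn solid for H and dashed for L. Mup3 is lower in KO in 5 of 6 pairs, and Mup17 is 874 and 10370 CPM in the 6-month H pair and 938 and 9773 CPM in the 12-month L pair, with 3 of the other lines sloping down.

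The genotype experiment also held the 3 ages, with H and L at other clock times at each, so that age and clock time cannot be told apart there. The libraries of an age, WT and KO at H and L, stood in for replicates in its age tests. Genotype and time of collection were terms of the fit, so KO livers entered these age differences. At 6 months the whole family took 2.61% of counts in WT at H and 2.25% at L, against 6.18 to 9.27% in the time course. The experiments used different mice and count tables, and the source of this difference was not tested. *Mup21* had lowest, median and highest values of 204, 298 and 512 CPM at 2 months and 109, 146 and 187 CPM at 12 months (4 libraries each), and all 12-month values were below all 2-month values. It was lower at 12 than at 2 months, at -1.14 (SE 0.33, adjusted p = 0.0444), 1 of 7 members beside 11.7% of genes, but with library totals counted without *Mup* rows the adjusted p was 0.0510. DESeq2 called *Mup1* and *Mup21* there, 2 of 7 members beside 14.3% of genes. The sum of all *Mup* rows was -0.70 (SE 0.37, adjusted p = 0.252) for 12 against 2 months and -0.68 (SE 0.37, adjusted p = 0.514) for 12 against 6 months. For 6 against 2 months 0 of 7 members were called, beside 2.61% of genes, and for 12 against 6 months 0 of 7, beside 0.0208%. *Mup17* was at -0.52 in the latter (SE 0.79, adjusted p = 0.881).

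Genes of the same hormonal programme were read from lists chosen with earlier results of these data known. Of 17 male-biased liver genes outside the family, 12 were called lower and 1 higher at 12 than at 2 months. Over all genes 5.18% were called lower and 6.47% higher. The median of the list was -0.75, beside 0.0016 over all genes. *Selenbp2*, a selenium-binding protein, was at -2.91 (SE 0.17, adjusted p = 4.17e-08), *Cyp7b1*, an oxysterol hydroxylase, at -1.15 and *Cyp4a12b*, a fatty acid hydroxylase, at -1.92, while *Susd4* was higher at 0.68. Between 6 and 12 months 8 of 17 were called lower and 0 higher (median -0.44), beside 7.58% and 8.57% of genes. Male-biased genes were also called at 6 against 2 months, beside 6.73% of genes lower and 6.83% higher. Of the 6 named there, *Ugt2b1* was at -0.87, *Selenbp2* at -0.78, *Hsd3b5* at -0.72, *Slco1a1* at -0.56 and *Cyp2d9* at -0.52. The remaining gene, *Susd4*, was higher at 0.73. Of 15 genes of growth hormone signalling and *Mup* regulation, 4 were called lower and 0 higher at 12 than at 2 months (median -0.25). The 4 were *Igfals*, the acid-labile carrier of IGF-1, at -0.63, *Igf1* at -0.34, *Onecut1* at -0.71 and *Stat5b* at -0.26. Between 2 and 6 months 4 of these 15 were called lower and 0 higher (median -0.33), beside 6.73% and 6.83% of genes. They were *Igfals* at -0.64, *Ghr*, the growth hormone receptor, at -0.46, *Stat5b* at -0.35 and *Igf1* at -0.34. Between 6 and 12 months 0 of these 15 were called, beside 16.1% of genes in either direction. The part of these growth hormone genes in the family values was not tested. In the genotype experiment 2 of 16 were called higher and 2 lower at 12 than at 2 months, beside 11.7% of genes in either direction. There *Stat5b* was higher at 0.58 and *Jak2*, the kinase bound to the receptor, at 0.44, while *Igfals* was lower at -1.03. Of the 14 female-biased genes 5 were tested, and between 2 and 12 months 2 were called higher and 1 lower. Between genotypes 0.721% of genes were called lower and 0.64% higher. Of 17 male-biased genes 2 were called lower in KO, *Serpina1e* at -2.28 and *Slco1a1* at -0.93. Of 16 growth hormone genes 0 were called. Without the doubted pairs, where 9 genes of the whole table were called between genotypes, *Serpina1e* was at -2.24 (adjusted p = 0.201) and *Slco1a1* at -0.80 (adjusted p = 0.232), and neither was called.

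Other liver lipocalins were read beside the family. Between 2 and 6 months 5 of 9 were called higher and 2 lower, beside 6.83% and 6.73% of genes. *Lcn2* and *Orm2*, acute-phase proteins, were at 6.50 (SE 0.55) and 5.61 (SE 0.52). Between 6 and 12 months 5 were called lower and 1 higher, beside 7.58% and 8.57% of genes. *Lcn2* was at -7.40 (SE 0.57) and *Rbp4*, the retinol carrier, at 0.46. In KO *Apom* was lower at -0.73 (SE 0.11, adjusted p = 0.0154) and *Orm3* higher at 0.96 (SE 0.19, adjusted p = 0.0396), 1 of 9 called in each direction. Without the doubted pairs they were at -0.82 and 0.88, each with adjusted p = 0.0988, and neither was called. Outside the *Mup* rows, the genes whose log2 CPM followed the sum of the 7 members most closely over the 18 time-course libraries, among 7205 genes, were *Mrrf* (Pearson r = 0.860), *Chid1* (0.834), *C9* (0.831), *Serpina3k* (0.800) and *Kmo* (0.794), and the lowest were *H2-Q4* (-0.852), *Cyp4a14* (-0.825) and *Trnau1ap* (-0.772). Over the 12 genotype libraries, among 7782 genes, they were *Upf2* (0.914), *Taf13* (0.898), *Setd6* (0.838), *Ywhaq* (0.833) and *Ccdc25* (0.825), and the lowest were *Ppp2r1a* (-0.947), *Nsdhl* (-0.915) and *Fkbp9* (-0.911). Libraries share depth and composition, and these values are a description.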

How the data were processed

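The deposited values are read counts per gene, which the authors made, per the labels and the submitters' processing notes, with fastp, HISAT2 and featureCounts on mm10. Versions, annotation, strand setting and treatment of reads matching several genes are not given in the sources used here. The labels name both an Illumina TruSeq and a NEBNext kit. From the counts, TMM-scaled CPM and edgeR 4.0.16 quasi-likelihood tests (R 4.3.3, low-count filter by filterByExpr, Benjamini-Hochberg over all genes tested, threshold 0.05) were computed, with ZT as a block in the time course and the pair of age and time of collection as a block between genotypes, both from the labels. With 1 library per condition, the 6 ZT or 6 pairs stood in for replicates, so p-values measure the spread between them. For ages in the genotype experiment the fit held age, genotype and time of collection. There the WT and KO libraries of an age stood in for replicates. SE is the log2 fold change over the root of F. Sums replaced their rows in the fit. FPKM used the union of exons. Rhythm was tested over all 720 orders of 6 values among genes of mean CPM at least 1. Scripts were tested on simulated data. DESeq2 1.42.0 was an alternative. Coding identity stood in for protein identity, which was not analysed here. Named genes were the members, other *Mup* rows, *Egr1*, up to 6 called genes per list and the genes most and least like the sum of the 7 members among those of mean CPM at least 10. The members, lists and rules were chosen with earlier results of these data known, so adjusted p-values are not independent support. Alternatives for the sum of all *Mup* rows, and those for the interactions and list genes without the doubted pairs, were added after seeing the data.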

Additional observations from a re-analysis of the deposited data

Results flagged for a closer look

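Of 45 groups of 6 libraries examined, 5 had a library whose gap to the nearest other passed Dixon's 95% critical value, where chance flags about 1 in 20 groups. *Mup20* and *Mup21* at 2 months were both highest at ZT21, at 10719 CPM against 6074 CPM for the next library and at 950 CPM against 539 CPM. *Mup1* at 6 months was highest at ZT5, at 216 CPM against 103 CPM. In WT *Mup1* was highest at 6 months L, at 91.9 CPM against 20.5 CPM. In KO *Mup19* was highest at 6 months H, at 1545 CPM against 484 CPM. The last 2 groups mix ages and times of collection.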

How the results depend on the processing

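The falls of *Mup17*, of the 7 members and of all *Mup* rows between 6 and 12 months kept direction and call under every alternative run for them, at -2.40 to -1.77, -0.73 to -0.56 and -1.18 to -0.99 with 1 ZT left out. The fall of the 7 members between 2 and 12 months lost its call without the replicate block (-0.48), in the exact sign-flip test (-0.50) and in 5 of 6 fits leaving out 1 ZT (-0.65 to -0.43). Between genotypes the sum of the 7 members turned to 0.0349 with totals counted without *Mup* rows and to 0.32 without the pairs 2 months L and 12 months H (-0.26 to 0.19 leaving out 1 pair), and all *Mup* rows to 0.20 without those pairs (-0.41 to 0.0117). In the genotype cohort the 6 against 2 months difference of the 7 members, 0.0020, turned to -0.0024 with DESeq2 size factors, -0.0033 with no filter and -0.0025 in the DESeq2 test. Among members not called, *Mup2* turned to 0.0812 (6 against 2 months) and -0.222 (genotype) without the replicate block, and *Mup21* to 0.0441 between genotypes without the doubted pairs. Leaving out 1 ZT gave ranges that cross 0 for *Mup1* (-0.48 to 0.093, -0.70 to 0.15 and -0.61 to 0.46 for 6 against 2, 12 against 2 and 12 against 6 months), *Mup2* (-1.03 to 0.19 for 6 against 2 and -1.23 to 0.30 for 12 against 6), *Mup3* (-0.19 to 0.0219 for 12 against 6), *Mup20* (-0.11 to 0.14 for 12 against 2) and *Mup21* (-0.19 to 0.0713 for 6 against 2). Leaving out 1 pair did so for *Mup1* (-0.36 to 0.54), *Mup2* (-0.45 to 0.56), *Mup19* (-0.059 to 1.52), *Mup20* (-0.0376 to 0.29) and *Mup21* (-0.31 to 0.0355). Without the low-count filter, edgeR called 3, 3 and 4 of 7 members for 6 against 2, 12 against 2 and 12 against 6 months. The shares of all genes called there were 8.53%, 7.70% and 9.64%. Without that filter it also called *Mup3* between genotypes, 1 of 7 beside 2.49% of genes. With totals counted without *Mup* rows it called *Mup20* for 6 against 2 months, beside 12.4% of genes. It then called *Mup3* and *Mup21* for 12 against 2, beside 10.7%, and *Mup17* and *Mup19* for 12 against 6 months, beside 15.2%. Genes called between ages were 1892, 1625 and 2252, and 1082, 986 and 1429 without the block (1196 to 1597, 955 to 1357 and 1285 to 2365 leaving out 1 ZT). Between genotypes they were 202, and 407 with totals without *Mup* rows, 636 with no filter, 21 without the block, 9 without the doubted pairs, 430 by DESeq2 and 45 to 137 leaving out 1 pair. In the genotype cohort DESeq2 called 804 rather than 375 genes for 6 against 2 months, and for 12 against 6 months 301 rather than 3, or 81 with no filter. It called 9 rather than 2 genes for genotype by age and 19 rather than 1 for genotype by time, where 32 and 0 were called without the doubted pairs. For the change of rhythm between 2 and 6 months 15 genes became 133 with no filter and 270 by DESeq2, and between 2 and 12 months 0 became 4 and 18. The cosine fit called 673, 659 and 504 genes at 2, 6 and 12 months, where the exact test had 1085, 1033 and 803 at its smallest p. The causes of these changes were not tested. Depth did not limit the abundant members, but 19 reads of *Mup19* stood behind its lowest genotype value.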
